A study of Ovis aries with 62 samples.

Results

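The 40 rumen walls described here, of 62 in all, are the 20 with the highest and the 20 with the lowest level of 3 interferon-induced genes relative to the sheep tested beside them. Each library of the AUS experiment was scored by the mean log2 CPM (CPM are read counts scaled to an equal library size) of *OAS2*, *DHX58* and *MX1*. Within each of the 4 test blocks the 5 highest scores formed the interferon-high group and the 5 lowest formed the interferon-low group, and the other 22 sheep were placed in neither. All sheep were adult Merino ewes on a chaffed lucerne and oat diet, their RNA came from the full thickness of the ventral rumen wall, and a block was a test period. The labels name no infection or treatment, so the groups are the ends of a measured range and not an exposure. The values of the 3 score genes chose the groups and are given as a description only.

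Type I interferons are secreted proteins that cells release when sensors find foreign nucleic acid, and they act on neighboring cells through a receptor that switches on a shared set of genes. That set holds the sensors themselves, enzymes that block virus growth, and the machinery that cuts proteins into peptides and shows them on class I molecules. The rumen wall carries a stratified squamous epithelium over connective tissue and smooth muscle, and its surface faces a dense population of microbes.

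The 62 libraries held 4208032 to 12130080 assigned reads, with a median of 7923973. Symbols were known for 1224 of the 16011 genes, so most genes are counted here without a name. The interferon-high libraries held 4754572 to 12130080 reads and the interferon-low libraries 5126596 to 11675071. Markers of the wall's layers were present in every library of both groups. The summed level of 16 contractile genes was 13.99 to 16.58 log2 CPM in interferon-high sheep and 13.98 to 16.80 in interferon-low sheep, and that of 11 epithelium genes was 11.92 to 14.15 in interferon-high sheep and 12.52 to 14.12 in interferon-low sheep. No gene of the leukocyte, endothelium or class II lists had a symbol, so those cells were not assessed here.

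The score covered a wide range and its level differed between the blocks. Medians over all sheep of a block were 3.99, 4.74, 5.62 and 5.50 in blocks 1 to 4. The interferon-high sheep averaged 4.88, 5.41, 6.58 and 6.69 in blocks 1 to 4. The interferon-low sheep averaged 3.48, 4.06, 4.58 and 4.55 in the same order. The groups therefore lay 1.40, 1.36, 2.00 and 2.14 log2 units apart. High and low hold only within a block, since 2, 3 and 3 of the 5 interferon-low sheep of blocks 2, 3 and 4 scored above the lowest interferon-high sheep of block 1.

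The boundaries were narrow in places. In block 1 the last sheep in the interferon-high group scored 4.20 and the next sheep 4.11, and in block 4 these scores were 6.30 and 6.24. At the lower boundary the last interferon-low sheep of block 3 scored 5.08 and the sheep above it 5.11. One sheep stood apart: oz238 of block 3 scored 7.82, against 6.43 for the next highest sheep of its block.

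**Figure D1:**
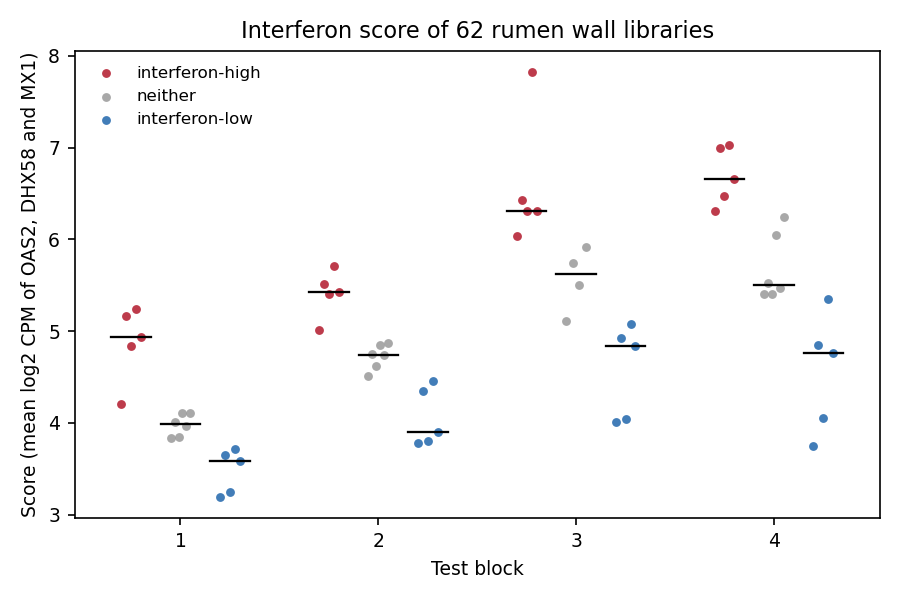
Score of each of the 62 sheep (y axis, mean log2 CPM of *OAS2*, *DHX58* and *MX1*) by test block (x axis), with interferon-high sheep in red, sheep of neither group in gray and interferon-low sheep in blue; black lines are medians. Blocks 3 and 4 lie above blocks 1 and 2, and oz238 at 7.82 is the highest sheep.

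*MX1*, a dynamin-like GTPase that blocks virus replication, had the widest span of the score genes. It was at 4.74 to 9.47 log2 CPM in interferon-high sheep (median 6.25) and 2.95 to 6.08 in interferon-low sheep (median 3.78). In block 1 the interferon-high sheep were at 4.74, 4.96, 5.40, 5.76 and 6.07 and the interferon-low sheep at 3.00, 3.16, 3.41, 3.62 and 3.72. In block 4 the interferon-high sheep were at 6.57, 6.91, 7.45, 7.55 and 7.84 and the interferon-low sheep at 2.95, 3.48, 4.62, 5.09 and 5.71. No sheep of one group reached the other in any block, and the mean difference was 2.34 log2 units, or 5.05-fold. Without oz238, at 9.47, it was 2.21.

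*OAS2*, which makes the short adenylate chains that activate RNase L, was at 4.52 to 8.41 log2 CPM in interferon-high sheep (median 6.81) and 3.69 to 5.93 in interferon-low sheep (median 4.85), a difference of 1.72. *DHX58*, the RNA helicase LGP2 that modulates the other cytosolic RNA sensors, was at 3.13 to 5.67 in interferon-high sheep (median 4.52) and 2.37 to 4.41 in interferon-low sheep (median 3.44), a difference of 1.11. For both genes the groups overlapped in block 1 and were apart in blocks 2, 3 and 4.

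The question of the comparison was which other genes follow this score. With block as a factor, 58 of the 16008 other genes were higher in interferon-high sheep (limma, Benjamini-Hochberg adjusted p below 0.05), which is 0.362% of the genes tested, and 2 were lower (0.0125%). The 58 held the 13 remaining genes of the type I interferon list, a set of 16. The study drew that list from genes shared by gene networks of these same libraries and of New Zealand sheep. Because that choice tied the 13 genes to the score genes beforehand, their differences are given below with their SE and without a p. The remaining 45 had no symbol, and 1 of them was in the muscle list. None of the 1208 genes with a symbol outside the type I interferon list passed. Symbols were read only from the study's tables, chiefly its gene lists. A gene that follows the score but is in no list would therefore seldom carry one, so this count says little about such genes. Of the 58 genes, 53 were higher in all 4 blocks (8.13% of all genes tested), a count that the choice of genes by this same contrast largely fixes. The count leaned on blocks 3 and 4, where the score spread most, and was 25 without block 3 and 23 without block 4. With sheep chosen by *OAS2* alone it was 212, with 500 lower genes in place of 2. In a bulk sample, more cells that express a gene and more RNA per cell cannot be told apart.

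All 13 genes had the 5 interferon-high sheep wholly above the 5 interferon-low sheep in at least 1 block, which was so for 2.46% of all genes, and 6 of the 13 in at least 3 blocks, against 0.0437% of all genes. Both RNA sensors outside the score were higher. *IFIH1* encodes MDA5, a sensor of long double-stranded RNA. It was at 3.95 to 7.08 log2 CPM in interferon-high sheep (median 5.47) and 3.75 to 5.0 in interferon-low sheep (median 4.35), a difference of 1.17 ± 0.13 (SE, 20 against 20 sheep), or 2.25-fold. In block 2 the interferon-high sheep lay within 5.14 to 5.36 and the interferon-low sheep within 3.75 to 4.78. In block 1 the groups overlapped, at 3.95 to 5.21 in interferon-high sheep and 3.77 to 4.48 in interferon-low sheep.

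*DDX58* encodes RIG-I, which senses the ends of viral RNA. It was at 2.18 to 6.76 log2 CPM in interferon-high sheep (median 3.93) and 2.03 to 3.54 in interferon-low sheep (median 2.78). The difference of 1.47 ± 0.20 (SE) was the largest among the 13 genes. It was 0.71 and 0.73 in blocks 1 and 2, and 2.11 and 2.32 in blocks 3 and 4. The groups overlapped in block 2, where the lowest interferon-high sheep was at 2.18 and the highest interferon-low sheep at 2.53. The gene rested on 29 to 1000 reads in interferon-high libraries and 22 to 92 in interferon-low libraries.

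Genes of ADP-ribosylation, the attachment of ADP-ribose to proteins, were higher in all 4 blocks. *PARP9* encodes a macrodomain protein that pairs with the ubiquitin ligase encoded by *DTX3L*, and *PARP14* encodes a mono-ADP-ribosyltransferase. *PARP9* was at 3.71 to 7.09 log2 CPM in interferon-high sheep (median 5.10) and 3.18 to 4.71 in interferon-low sheep (median 3.84). In block 2 its values were 4.27, 4.38, 4.76, 4.78 and 4.88 in interferon-high sheep and 3.18, 3.62, 3.76, 3.99 and 4.11 in interferon-low sheep. All 5 interferon-high sheep were above all 5 interferon-low sheep in each of the 4 blocks, which was so for 2 of the 16008 genes (0.0125%). The difference was 1.40 ± 0.15 (SE) for *PARP9*, 1.17 ± 0.13 for *DTX3L* and 0.88 ± 0.15 for *PARP14*. *PARP14* overlapped between the groups in blocks 1 and 2, with differences of 0.44 and 0.35, and was apart in blocks 3 and 4, with 1.24 and 1.48.

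Another 4 effectors were higher by 0.42 to 0.88 log2 units. *EIF2AK2*, the kinase PKR that halts translation on double-stranded RNA, was at 5.68 to 7.71 log2 CPM in interferon-high sheep (median 6.84) and 5.35 to 6.45 in interferon-low sheep (median 5.98). Its difference was 0.88 ± 0.10 (SE), with the groups apart in blocks 2, 3 and 4. *RNF213*, a large ubiquitin ligase, differed by 0.84 ± 0.13. *MOV10*, an RNA helicase, differed by 0.70 ± 0.13. *ZNFX1*, a helicase that also binds double-stranded RNA, had the smallest difference of the 13, 0.42 ± 0.08, and its groups were apart only in block 4. The block 2 differences of these last genes were small, with 0.16 for *MOV10* and 0.17 for *ZNFX1*.

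Class I antigen processing was covered by 4 genes of the list: *B2M*, the light chain of every class I molecule, *TAP1*, a subunit of the peptide transporter, and *PSMB8* and *PSMB9*, catalytic subunits of the immunoproteasome. *B2M* was at 9.16 to 11.42 log2 CPM in interferon-high sheep (median 10.12) and 8.25 to 10.46 in interferon-low sheep (median 9.28), a difference of 0.87 ± 0.15 (SE). *TAP1* was at 5.48 to 7.66 in interferon-high sheep (median 6.25) and 4.57 to 6.43 in interferon-low sheep (median 5.29), a difference of 1.02 ± 0.16. *PSMB8* differed by 0.82 ± 0.15 and *PSMB9* by 0.71 ± 0.15. Without block 3, *B2M* and *PSMB9* differed by 0.71 and 0.44 and were no longer among the genes called.

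These 4 genes differed little between the groups of block 2. *B2M* was at 9.48, 9.76, 9.92, 9.93 and 10.45 log2 CPM in the interferon-high sheep of that block and 9.53, 9.58, 9.87, 10.02 and 10.46 in the interferon-low sheep. *PSMB9* was at 3.22, 3.35, 3.51, 4.03 and 4.06 in the interferon-high sheep and 3.26, 3.63, 3.67, 3.92 and 4.01 in the interferon-low sheep. Both genes were mixed between the groups. *IFIH1*, *PARP9*, *DTX3L* and *EIF2AK2* were fully apart in the same 10 sheep, while *RNF213*, *ZNFX1*, *DDX58*, *MOV10* and *PARP14* also overlapped there. The block 2 differences were 0.01 for *B2M*, 0.08 for *PSMB8*, -0.06 for *PSMB9* and 0.31 for *TAP1*. In block 3 they were 1.35, 1.48, 1.49 and 1.52 for the same genes. Block 2 was singled out after its values were seen. When the difference was allowed to vary between blocks, no gene of the 16008 passed after adjustment (limma F test of the interaction), and 695 had an unadjusted p below 0.05, or 4.34%. The unadjusted p of this test was 0.0047 for *B2M*, 0.0058 for *PSMB8*, 0.0025 for *PSMB9* and 0.040 for *TAP1*, with an adjusted p of 0.995 for each. *DDX58* had 0.0010, with the same adjusted p.

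**Figure D2:**
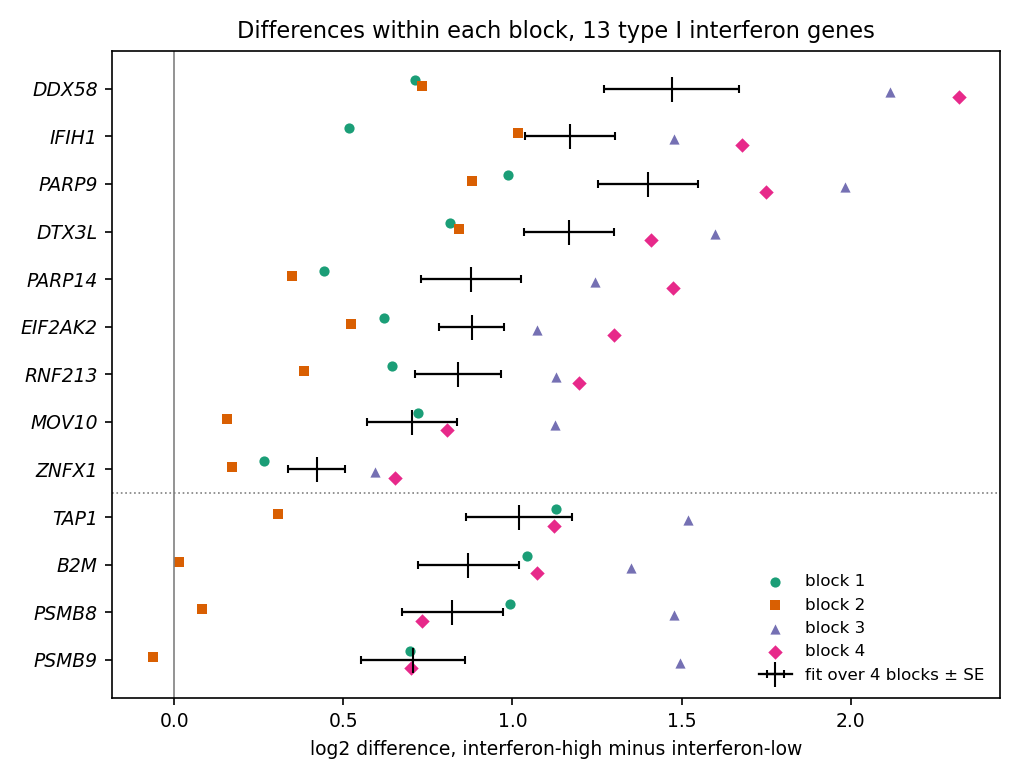
Difference between interferon-high and interferon-low sheep on the log2 scale (x axis) for the 13 type I interferon genes outside the score (y axis). Colored symbols are the 4 blocks (5 against 5 sheep each), black bars are the fit over blocks with its SE, and the dotted line sets off the 4 antigen processing genes, whose block 2 differences are -0.06 to 0.31; block 2 is the lowest block for these and for 6 of the other 9 genes.

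**Figure D3:**
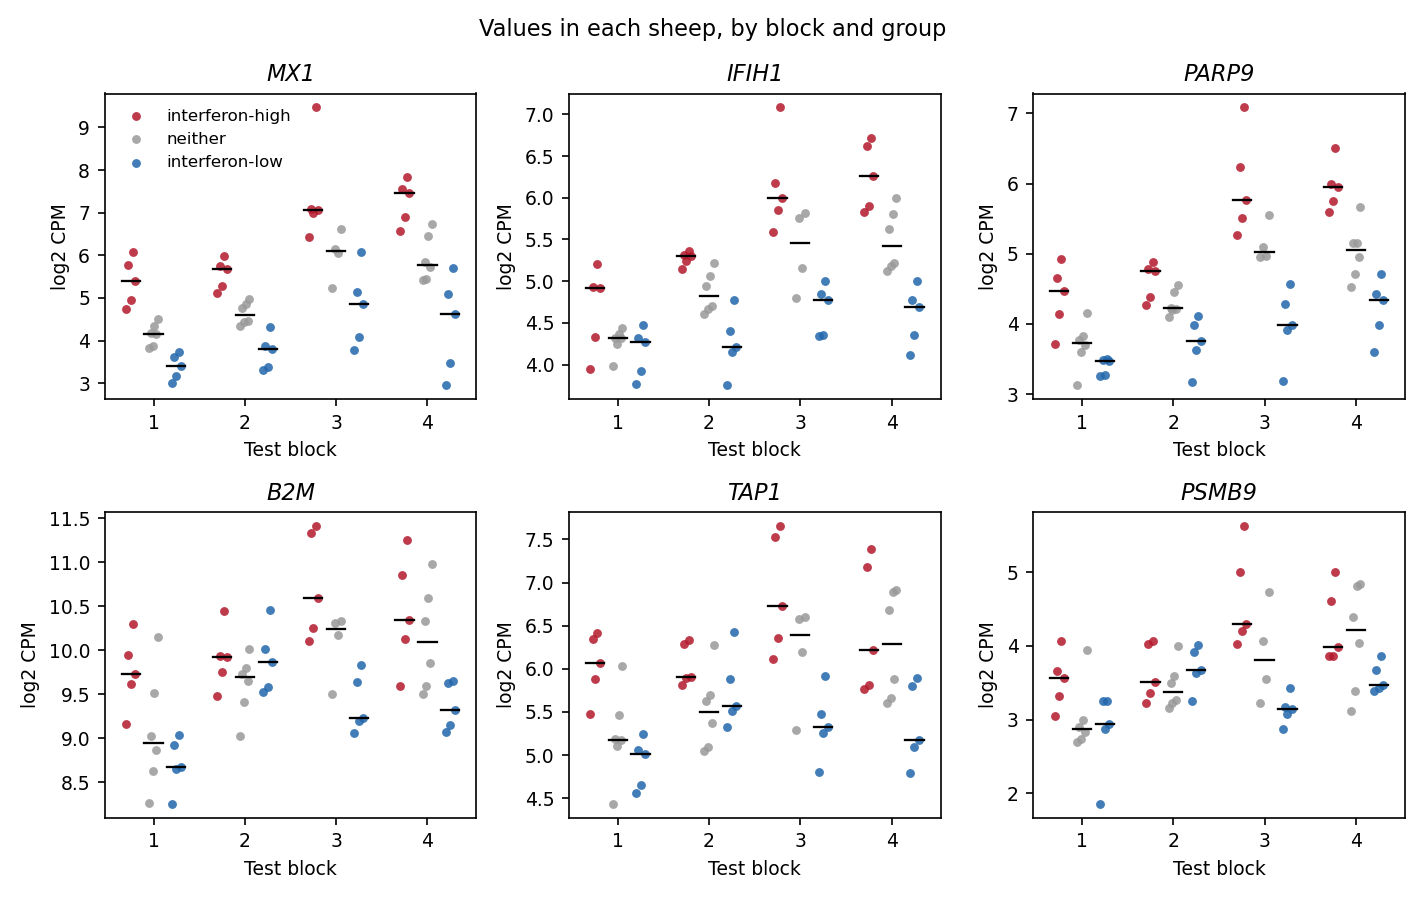
Values of 6 genes in each of the 62 sheep (y axes, log2 CPM) by test block (x axes), with interferon-high sheep in red, sheep of neither group in gray, interferon-low sheep in blue and medians as black lines. *MX1* and *PARP9* separate the groups in all 4 blocks, while *B2M* and *PSMB9* are mixed in block 2.

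Within the list of 16, the 4 antigen processing genes were closer to each other than to the rest. After block means were removed, Pearson's r over the 62 sheep was 0.80 to 0.92 for the 6 pairs among them. It was 0.43 to 0.75 for the 48 pairs that join them to the other 12 genes, and 0.50 to 0.92 for the 66 pairs among those 12. These values describe genes that were grouped by the study for their co-expression, in libraries shared by all pairs, and no test was made of them.

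The 22 sheep of neither group gave a second look at the same genes over the middle of the range, where block medians were 3.99 to 5.62. No gene passed after adjustment there (limma slope on the score with block as a factor). An unadjusted p below 0.05 was found for 796 genes (4.97%), with a positive slope in 443 (2.77%) and a negative slope in 353 (2.21%). Of the 13 type I interferon genes, 9 had a positive slope, against 51.8% of all genes tested. Positive slopes were also found for 39 of 41 lipid/oxo-acid metabolism genes and 42 of 43 cell cycle genes, and for 71 of 647 muscle genes. A positive slope was therefore not particular to the type I interferon list. Since the study tied the genes of that list to the score genes in all 62 libraries, these 22 included, their slopes are again given without a p. *IFIH1* had a slope of 1.01 ± 0.19 log2 units per unit of score (SE). *DDX58* had a slope of 1.45 ± 0.52, *PARP14* 0.64 ± 0.22, *EIF2AK2* 0.60 ± 0.19, *PARP9* 0.56 ± 0.26 and *DTX3L* 0.49 ± 0.23.

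The 4 antigen processing genes had no positive slope in these 22 sheep. It was -0.18 ± 0.44 for *B2M*, -0.21 ± 0.45 for *TAP1*, -0.35 ± 0.49 for *PSMB8* and -0.07 ± 0.47 for *PSMB9* (SE). Each SE was larger than the size of its slope, and the median slope of the 4 over all 62 sheep was 0.49, so a relation in the middle of the range was not detectable for them rather than shown to be absent. *RNF213*, *MOV10* and *ZNFX1* had slopes of 0.38 ± 0.21, 0.45 ± 0.25 and 0.13 ± 0.17.

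**Figure D4:**
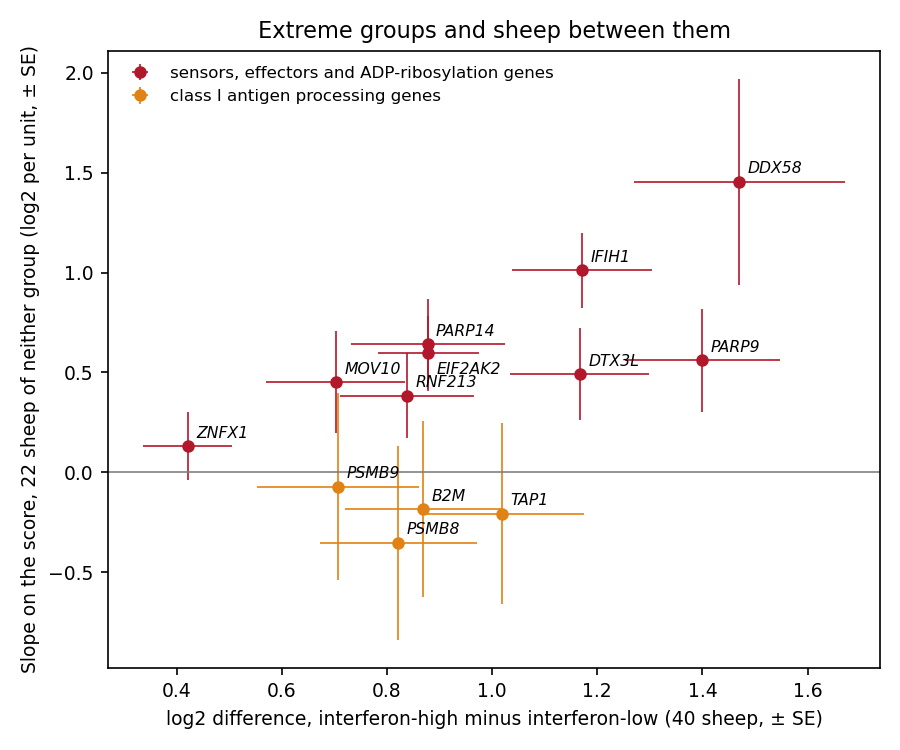
Slope on the score in the 22 sheep of neither group (y axis, log2 units per unit of score) against the difference between interferon-high and interferon-low sheep (x axis, log2 scale) for 13 genes, each with its SE. The 9 sensor, effector and ADP-ribosylation genes (red) lie above 0 on the y axis and the 4 antigen processing genes (orange) lie between -0.35 and -0.07.

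The genes most like the score were looked for over all 62 sheep, by Pearson's r after block means were removed. Of the 10 closest, 5 had a symbol, and all 5 were type I interferon genes. They were *IFIH1* (r = 0.93), *PARP9* (r = 0.91), *EIF2AK2* (r = 0.91), *DTX3L* (r = 0.89) and *DDX58* (r = 0.82). The other 5 of the 10 had no symbol. Few genes outside the study's lists carry a symbol, so it was largely fixed beforehand that the named ones would come from this list. *B2M* ranked 24 of the 16008 genes, *TAP1* 23, *PSMB8* 38 and *PSMB9* 46. As the groups were cut from the same score, this order restates the differences above over more sheep.

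Genes without a symbol made up most of the calls. The 45 were higher by 0.21 to 3.67 log2 units with a median of 0.92, 21 of them by more than 1. In the 22 sheep of neither group, 37 of the 45 had a positive slope, against 51.8% of all genes. For 8 of them the positive slope had an unadjusted p below 0.05 (limma), against 2.77% of all genes. The largest difference belonged to ENSOARG00000007233. It was at 2.37 to 7.72 log2 CPM in interferon-high sheep (median 4.85) and -3.57 to 4.21 in interferon-low sheep (median 1.03). Its groups were apart in all 4 blocks, and the difference was 3.67 ± 0.33 (SE, limma adjusted p = 7.5e-10). It rested on 30 to 1944 reads in interferon-high libraries and 0 to 107 in interferon-low libraries, 1 of them at 0, so the size of its difference leans on the offset added before the logarithm. In the 22 other sheep its slope was 2.01 ± 0.52 (unadjusted p = 0.00070, limma adjusted p = 0.73).

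ENSOARG00000014648 had the second largest difference, 2.37 ± 0.36 (SE, limma adjusted p = 6.0e-05). It was at -1.01 to 5.35 log2 CPM in interferon-high sheep and -2.18 to 0.57 in interferon-low sheep. Its groups were apart only in blocks 3 and 4, where the differences were 3.05 and 4.41, against 1.33 and 0.67 in blocks 1 and 2. Reads were few, with medians of 21 in interferon-high libraries and 6 in interferon-low libraries. The 2 genes that fell were ENSOARG00000003300, by 0.69 ± 0.14 (adjusted p = 0.0086), and ENSOARG00000020847, by 0.27 ± 0.06 (adjusted p = 0.045, both limma). ENSOARG00000003300 rested on only 6 to 39 reads in interferon-high libraries and 8 to 51 in interferon-low libraries. The block 2 difference of ENSOARG00000020847 was -0.003. Neither passed without block 1, block 3 or block 4, or with sheep chosen by *MX1* alone.

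Other genes of the same pathways were compared from textbook lists, by count and median beside the median of all genes tested, -0.0021 log2 units. The 3 class I genes outside the type I interferon list, the chaperones *TAPBP*, *CANX* and *PDIA3*, did not pass, with differences of 0.11 ± 0.13, 0.03 ± 0.06 and 0.08 ± 0.08 (SE). Constitutive proteasome genes, whose products form the particle into which *PSMB8* and *PSMB9* are exchanged, did not pass in any of 7 cases and had a median of 0.08. Among 3 regulators of interferon signaling, none passed. *IRF2*, a repressor at interferon-responsive genes, differed by -0.01 ± 0.13, and *PTPN2*, a phosphatase that dampens JAK signaling, by 0.14 ± 0.08. Most members of that list had no symbol and were not assessed.

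Inflammatory and epithelial genes had small differences. None of 7 epithelial alarm proteins passed, and their median was 0.13. *S100A8* and *S100A9*, calcium-binding proteins of stressed epithelium and myeloid cells, differed by 0.11 ± 0.18 and 0.13 ± 0.25 (SE). *IL1RN*, the interleukin-1 receptor antagonist, was at 3.73 to 5.71 log2 CPM in interferon-high sheep and 3.93 to 5.33 in interferon-low sheep, a difference of 0.28 ± 0.11 that did not pass (limma adjusted p = 0.46). None of 43 epithelial differentiation genes passed (median 0.08), and none of 43 cell cycle genes (median 0.03). The same held for 42 general metabolism genes (median 0.06) and 41 lipid/oxo-acid metabolism genes (median 0.03). It also held for 354 other metabolism genes (median 0.06) and 24 oxidative phosphorylation genes (median 0.04). The cell cycle, metabolism and oxidative phosphorylation lists had negative medians in blocks 1 and 3 and positive ones in blocks 2 and 4. The medians of epithelial differentiation were -0.04, 0.09, 0.08 and 0.13 in blocks 1 to 4. For lipid/oxo-acid metabolism the medians were -0.15, 0.08, -0.14 and 0.36 in blocks 1 to 4. In the 22 sheep of neither group, 12 of its 41 genes had a positive slope at an unadjusted p below 0.05 (limma). So had 29 of the 354, against 2.77% of all genes, and none of the 42 or the 24. No gene passed there after adjustment. The nearest to the threshold among genes with a symbol outside the type I interferon list was *RABGGTB*, a subunit of the enzyme that attaches lipid anchors to Rab proteins, with 0.35 ± 0.09 (limma adjusted p = 0.12).

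Genes of the muscle layers leaned the other way, with none lower after adjustment between the groups. The mean of the 647 genes of the muscle list was 5.11 to 6.61 log2 CPM in interferon-high sheep (median 5.77) and 5.02 to 6.60 in interferon-low sheep (median 6.05). The groups overlapped over nearly the whole range. The median difference of these genes was -0.22, 198 of them (30.6%) were lower at an unadjusted p below 0.05, against 5.23% of all genes tested, and 1 was higher and none lower after adjustment. All 16 contractile genes had a negative difference, from -0.56 to -0.31, and none passed. *MYH11*, the smooth muscle myosin heavy chain, was at 12.14 to 14.65 log2 CPM in interferon-high sheep and 12.13 to 14.78 in interferon-low sheep, a difference of -0.39 ± 0.19 (limma adjusted p = 0.54). Of 15 matrix genes, 14 had a negative difference and none passed (median -0.31). Over all 16008 genes tested, 7905 had a positive difference. With a slope on the score over all 62 sheep, 11 of the 647 muscle genes were lower and 1 higher after adjustment (limma). Over all genes tested, 0.262% were lower in that fit. In the 22 sheep of neither group, 48 of the 647 had a negative slope at an unadjusted p below 0.05 (limma), against 2.21% of all genes, and none passed after adjustment. The study drew the muscle list from co-expression, so the signs of its genes are not separate results. In block 3 the median of the contractile genes was 0.10, and it was -0.39, -0.51 and -0.75 in blocks 1, 2 and 4.

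**Figure D5:**
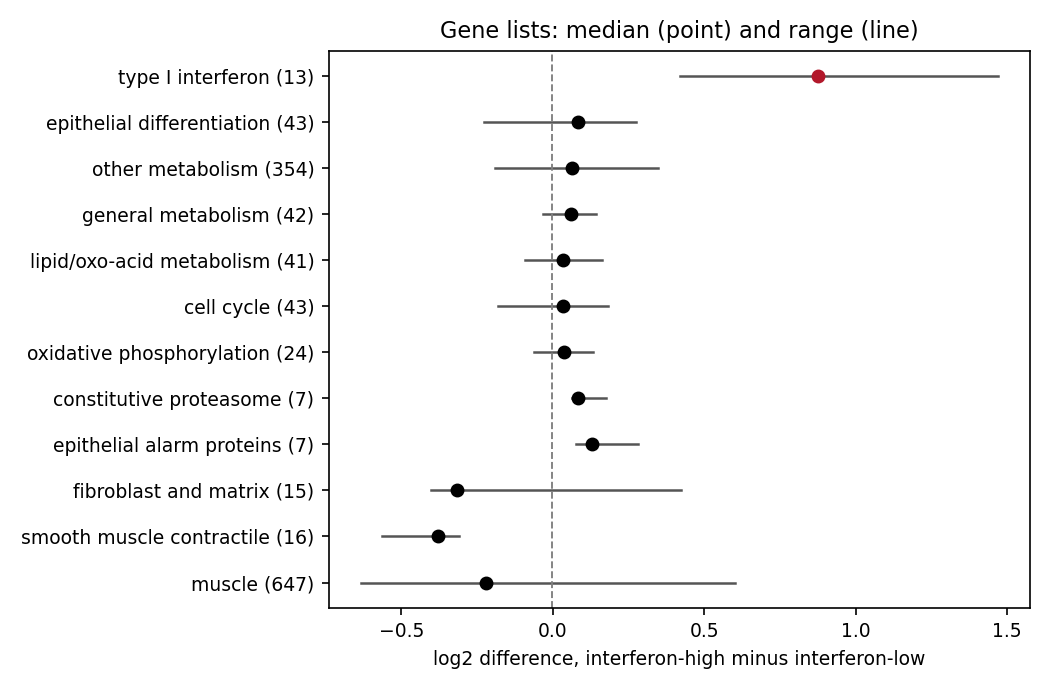
Median (point) and range (line) of the difference between interferon-high and interferon-low sheep on the log2 scale (x axis) for 12 gene lists, with the number of genes tested in brackets and the median of all genes tested as a dashed line. The type I interferon list (red) spans 0.42 to 1.47, and the smooth muscle contractile genes span -0.56 to -0.31.

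With the muscle mean held constant beside block, 40 genes were higher (0.250%) and 1 was lower (0.00625%). All 40 were among the 58, and all 13 type I interferon genes were among the 40, with a median difference of 0.83 in place of 0.88. The genes no longer called had no symbol. List medians that had been positive became -0.12 for lipid/oxo-acid, -0.05 for other and -0.04 for general metabolism. They became -0.10 for cell cycle and -0.03 for epithelial differentiation, with no gene of these lists called.

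The animals of the groups were compared for size, intake and CH4, and no difference passed. CH4 production was 24.8 ± 4.04 g/d in interferon-high sheep and 23.7 ± 6.05 g/d in interferon-low sheep (SD, n = 20 each), a difference of 1.09 ± 1.63 g/d (SE, 2-sided permutation test within blocks, p = 0.49). It was 0.13, -2.88, 1.87 and 5.23 g/d in blocks 1 to 4, so its sign varied between blocks. CH4 yield was 21.0 ± 2.82 g/kg DMI in 20 interferon-high sheep and 20.3 ± 4.18 in 19 interferon-low sheep, a difference of 0.67 ± 1.15 (permutation p = 0.54). The yield difference was 0.75, 3.21, 1.28 and -2.37 g/kg in blocks 1 to 4. Interferon-low sheep oz175 of block 4, with a DMI of 0.376 kg/d and a yield of 35.7 g/kg, was kept here. Without it the difference was 1.53 ± 0.78 (unadjusted permutation p = 0.067), and that of block 4 became 0.49 in place of -2.37. DMI was 1.22 ± 0.29 kg/d in interferon-high sheep and 1.21 ± 0.36 kg/d in interferon-low sheep (permutation p = 0.97). Sheep oz151 of the interferon-low group was left out of yield and DMI for its very low labeled intake. Live weight was 64.2 ± 7.12 kg in interferon-high sheep and 64.6 ± 9.13 kg in interferon-low sheep, a difference of -0.43 ± 2.59 kg (permutation p = 0.88). Assigned reads did not differ beyond their spread either (permutation p = 0.62). The adjusted p was 0.97 for each of the 5 measures. The SE of each difference came from the SDs and sizes of the groups and left block out, unlike the permutation test.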

How the data were processed

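The deposited values are log2 CPM per gene and sheep, made by the authors with voom from HTSeq counts of uniquely mapped reads (TopHat and Bowtie2, Ensembl sheep gene models with added models). Reads recovered from them were whole in 100% of values (tolerance 0.01 reads, offset 0.5). The 62 columns carry the titles of the samples, and test block, live weight, CH4 production and DMI came from the labels. The ewes had 4 sires, which the labels do not give, so p-values take the sheep as independent.

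Symbols and the study's gene lists were read from the paper's supplementary tables. The members, the score and all lists were chosen with earlier results of these data known. The groups are the 5 highest and 5 lowest scores per block, and the 3 score genes were not tested between them. Other genes were fitted with limma 3.58.1 in R 4.3.3 on block and group (empirical Bayes with a variance trend, Benjamini-Hochberg over 16008 genes, threshold 0.05), which was also tested on simulated data. Slopes on the score used the 22 other sheep. Traits were compared with 100000 permutations within blocks, adjusted over 5 measures (Python 3.11.15, numpy 2.4.6, pandas 2.3.3, matplotlib 3.10.9).

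Named were all type I interferon genes, up to 10 called genes with a symbol per direction outside that list (there were none), up to 3 called members of each list, up to 2 genes without a symbol per direction, and genes with a symbol among the 10 most like the score. Members of the other lists that did not pass, and *RABGGTB*, were named after their values were seen. No sequence or coordinate is given, because no reference used here shares these gene IDs. Alternatives covered covariates, the number of sheep per block, the score genes, a minimum of 3 CPM in every library, scaling, the variance trend, and leaving out each block and each sheep. Where an alternative chose the sheep by other genes, only the genes of that choice were left out of its test. Voom precision weights from the recovered reads, and leaving out sheep oz175, were added after seeing the data.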

Additional observations from a re-analysis of the deposited data

How the results depend on the processing

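The 58 genes called higher became 38 without a block term, 99 with a slope over all 62 sheep, 127 with the score taken from the other 13 type I interferon genes, 212 with *OAS2* alone, 31 of 9936 at 3 CPM or more in every library, 25 without block 3 and 23 without block 4. Every one of the 38, the 31 and the 25, and 22 of the 23, were among the 58. The count of genes called lower, 2, became 1 with the muscle mean, log2 assigned reads, no block term, the 3 CPM minimum, quantile normalization or centering on the library median. It was also 1 without block 3, where the gene called was neither of the 2. The count became 0 with *MX1* alone, without block 1 or without block 4, and 6 without block 2. It was 12 with 4 sheep per block and end, 40 with the other 13 genes, 42 with the slope and 500 with *OAS2* alone. The cause was not tested. *OAS2* alone kept 18 of the 20 interferon-high and 17 of the 20 interferon-low sheep. Of its 500 lower genes, 257 were in the muscle list, which holds 647 of the 16010 genes tested. Leaving out single sheep gave 48 to 66 higher genes, the lowest without oz238, and 1 to 3 lower ones. Added after seeing the data, voom weights gave 59 higher and 3 lower genes. None of the 13 type I interferon genes turned its direction in 273 values, and 260 of these kept the call. Those lost were *PSMB9* in 5, *ZNFX1* in 3, *MOV10* in 2 and *B2M*, *PSMB8* and *PARP14* in 1 each, mostly without a block. These counts are a description and not independent support. The fits share most of their sheep, and the study had tied the 13 genes to the score genes beforehand.

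The difference in CH4 production became -0.0184 g/d with 4 sheep per block and end and -0.295 g/d without block 4. CH4 yield became -0.21 g/kg without block 2, -13.3 g/kg with oz151 kept and 1.78 g/kg without block 4, where the unadjusted permutation p was 0.049. DMI became -0.0841 and -0.0037 kg/d with 4 and 6 sheep, -0.0153 without block 3 and -0.107 without block 4. Without oz175, an alternative added after seeing the data, DMI became -0.0458 kg/d and CH4 yield 1.53 g/kg. Live weight became 0.771 kg with 6 sheep and 1.67 kg without block 2, and assigned reads 45440 without block 2. None of these differences passed its adjusted threshold at first. No paired analysis was possible because the sheep of the groups compared carry no shared replicate numbers in the labels, and block is in the model. Genes under about 20 reads move in steps, which limits their differences.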

Other observations

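Choosing the sheep by single score genes gave unequal numbers of calls among the muscle genes. With *OAS2* alone, 257 of the 647 muscle genes were lower and 1 higher, with a median difference of -0.34. With *DHX58* alone 1 was lower and 1 higher (median -0.27), and with *MX1* alone none was called (median -0.19). Over all 16010 genes tested, the lower and higher calls were 500 and 212 with *OAS2*, 2 and 51 with *DHX58*, and 0 and 53 with *MX1*. All 3 choices called 14 or 15 of the other 15 type I interferon genes, with medians of 0.95, 0.94 and 0.86 for *OAS2*, *DHX58* and *MX1*. These 15 include the 2 score genes not used for the choice. Their calls were largely fixed beforehand, because the study had tied the genes of the list together in these libraries. The groups shared 18, 16 and 18 of their interferon-high sheep and 17, 13 and 18 of their interferon-low sheep with those of the joint score, and no sheep changed to the opposite end. Whether the 3 choices differ was not tested, since they share most sheep.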
